A study of Homo sapiens with 6 samples.

Results

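Translation initiation factors are the proteins that bring a ribosome and the initiator tRNA to the start codon of an mRNA. Their genes were taken from the count table by symbol, as all rows beginning with Eif and a digit of 1 to 6, leaving out the eIF2 kinases (Eif2ak) and pseudogenes. This gave 53 genes of the 21872 in the table, and 49 of them, of 12293 genes in all, had enough counts to test. The choice used names only and no measured value.

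The libraries came from cultured MOC2 cells, which derive from a squamous carcinoma of the mouse mouth, in DMEM with serum. There were 3 libraries of HuR knockout cells and 3 of control cells. Both groups had received lentiviral particles with CRISPR/Cas9 for 18 hours at a multiplicity of infection of 25, a HuR construct in the knockout cells and a control construct in the control cells, and were kept for another 72 hours. HuR, encoded by Elavl1, binds AU-rich and U-rich stretches of mRNAs and is known to stabilise many of them. The protocol describes the isolation of 1 clone that had lost HuR, so the knockout libraries may all descend from that clone, and nothing says that libraries of a group came from separate cultures. The p-values therefore measure the spread between these libraries, which may be technical. The genotype label reads knockout and the titles knockdown, and the species label is human although the symbols and the series title are those of mouse.

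In the usual order of events, eIF2 bound to GTP carries the initiator tRNA to the small ribosomal subunit, where eIF1, eIF1A, eIF3 and eIF5 assemble with it. The eIF4F complex, made of the cap-binding protein eIF4E, the scaffold eIF4G and the helicase eIF4A, brings that subunit to the capped end of the mRNA. eIF5B then joins the large ribosomal subunit, and eIF2B recharges eIF2 with GTP. Amounts of eIF4E and eIF4G and the phosphorylation of eIF2 are textbook control points of protein synthesis, and in human cells the Eif4e mRNA has been described as bound and stabilised by HuR. The measurements here are mRNA levels and say nothing of protein amount or phosphorylation.

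Library totals lay between 16158516 and 21294330 counts. Elavl1 had CPM (counts scaled to a common library total) of 116, 114 and 105 in knockout libraries 1, 2 and 3, against 107, 120 and 117 in control libraries 1, 2 and 3. The mRNA level therefore does not check the labels (log2 fold change -0.04, SE 0.111, adjusted p = 0.82 by edgeR). Log2 CPM correlated across genes at 0.978 between knockout libraries 1 and 2 and at 0.924 and 0.931 between these and knockout library 3, which stands apart, and at 0.987 to 0.992 between control libraries. Many values below are given also without that library. The 5 epithelial markers checked summed to 3918 to 6115 CPM in knockout and 6844 to 8199 CPM in control libraries, with most of the knockout sum from Krt19, which did not pass (adjusted p = 0.342 by edgeR). The other epithelial markers fell, Epcam to 36.9 CPM in knockout against 541.4 CPM in control (14.7-fold) and Cdh1 to 44.7 CPM against 599.1 CPM (13.4-fold), and Krt8 and Krt18 with them (adjusted p by edgeR from 0.000645 to 0.0145). The 4 squamous basal markers summed to 83 to 257 CPM in knockout and 339 to 590 CPM in control libraries, but did not share a direction. Krt14, nearly all of the control sum, averaged 99.8 CPM in knockout and 452.8 CPM in control and did not pass (adjusted p = 0.0873 by edgeR). Krt15 rose 47.1-fold, to 42.6 CPM against 0.903 CPM in control (adjusted p = 0.00113 by edgeR), and Trp63 rose to 1.53, 4.51 and 15.8 CPM in knockout libraries against no count in control (adjusted p = 0.0165 by edgeR). Krt5 was at most 2.29 CPM in any library. The 8 fibroblast markers summed to 408 to 430 CPM in knockout and 3.73 to 8.42 CPM in control libraries, with most of the knockout sum from Col1a1, Col3a1 and Pdgfrb, while Lum had no count in any library and Col1a2, Dcn and Postn stayed under 1 CPM. Pdgfra did not share the rise, with 1.91, 1.81 and 8.82 CPM in knockout libraries 1, 2 and 3. It had 3.74, 2.26 and 2.86 CPM in control libraries 1, 2 and 3 and did not pass (adjusted p = 0.595 by edgeR). The counts of Trp63, Col1a2 and Postn, and of the endothelial marker Tek, were divided by 11 before these CPM were taken, as described under processing. The test of Trp63 also used the divided counts. The 4 endothelial markers summed to at most 1.04 CPM, and the 4 leukocyte markers to 1.76 to 36.9 CPM in knockout, the highest from Cd68 in library 3, and 2.16 to 6.04 CPM in control libraries; Itgam had no count. The part that these markers and the separate standing of knockout library 3 play in the values given here was not tested. In bulk RNA, fewer cells of a type and less RNA per cell cannot be told apart.

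Few initiation factor mRNAs passed the test, and most of those measured were slightly lower in knockout. Of the 49 genes tested, 3 fell (Eif6, Eif5 and Eif4e2) and 2 rose (Eif4e3 and Eif2b2) at an adjusted p under 0.05 (edgeR, quasi-likelihood F-test, adjusted over all genes). That is 10.2% of the initiation factors, against 35.7% of all genes tested. Of all genes, 15.4% were called lower and 20.3% higher, against 6.12% and 4.08% of the initiation factors. The median log2 fold change was -0.23 for the 49 genes and 0.03 for all genes. Of the 49, 35 had a log2 fold change below 0, as had 5902 of all 12293 genes tested. An unadjusted edgeR p under 0.05 was seen for 19 of the 49 and for 5702 of all genes. The changes were small: the median size of the log2 fold change, whatever its sign, was 0.33 for the initiation factors and 0.49 for all genes, and only Eif6 and Eif4e3 changed at least 2-fold. These are 4.08% of the 49 genes, where 22.7% of all genes were called and changed at least 2-fold. Without control library 1, 2 or 3, the number that rose was 0, 0 and 1 and the number that fell 2, 1 and 1. Over all genes, 1511, 1166 and 1228 then rose and 1174, 1146 and 1130 fell, against 2493 and 1899 with all libraries. Without knockout library 1 or 2, 2 and 1 rose and 10 and 2 fell. Over all genes, 2527 and 2091 then rose and 1888 and 1450 fell. These fits tested 12444 to 12562 genes. DESeq2 called 2 higher and 14 lower, or 4.08% and 28.6% of the 49, where it called 23% and 19.9% of all genes. The limma-voom test called 2 higher and 3 lower, against 2288 and 2000 of all 12293 genes tested.

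The single libraries gave the same picture of direction. In 24 of the 49 genes, or 49%, all 3 knockout libraries were below all 3 control libraries, where 27.9% of all genes were. In 5 genes (Eif2a, Eif2b2, Eif3f, Eif4b and Eif4e3) all knockout libraries were above all control libraries, where 29.7% of all genes were. Together these are 59.2% of the initiation factors, against 57.6% of all genes. Summed over the 53 genes, initiation factors took 17155, 15843 and 14266 CPM in knockout libraries 1, 2 and 3, against 18054, 20076 and 18298 CPM in control libraries 1, 2 and 3. Long and abundant mRNAs weigh most in that sum.

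**Figure D1:**
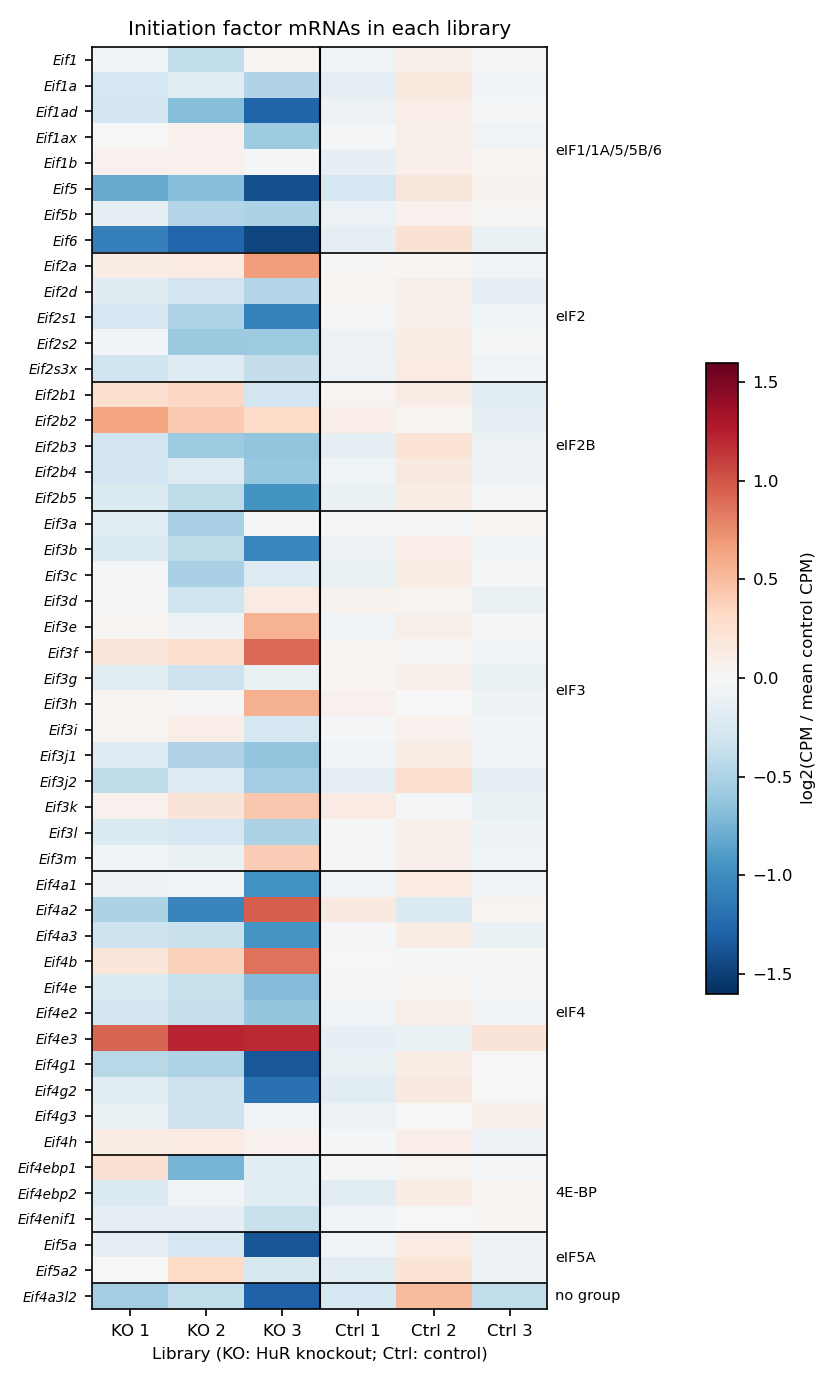
Log2 of the CPM in each library over the mean control CPM (colour, blue lower and red higher) for the 49 initiation factor genes tested (rows, grouped by role), with HuR knockout libraries 1 to 3 on the left and control libraries 1 to 3 on the right. Most rows are blue in knockout. Eif4e3 and Eif2b2, and also Eif2a, Eif3f, Eif3h, Eif3k, Eif4b and Eif4h, are above the control mean in all 3 knockout libraries. Knockout library 3 has the lowest value in 28 rows and the highest in 9.

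The knockout libraries differed from each other in this group of genes, though by less than over all genes. The median size of the log2 ratio of knockout library 3 over knockout libraries 1 and 2 was 0.3 for the initiation factors and 0.46 for all genes. Between knockout libraries 1 and 2 it was 0.14 and 0.2. Knockout library 3 had the lowest value of all 6 libraries for 28 of the 49 genes, or 57.1%, where it did so for 31.8% of all genes. It had the highest value for 9 of the 49, or 18.4%, where it did so for 33.7% of all genes. Leaving it out, 15 initiation factors were called lower and 4 higher. These are together 38.8% of the 49 genes, against 48.3% of all genes in the same fit. By direction, 15 of the 49 were lower, where 22.8% of all genes were, and 4 of the 49 were higher, where 25.5% of all genes were. In knockout libraries 1 and 2 alone, 27 of the 49 genes were below every control library and 7 above, or 55.1% and 14.3%, against 33.7% and 36.5% of all genes. The 14 genes that passed without knockout library 3 but not with it were Eif1ad, Eif2b3, Eif2b5, Eif2s1, Eif3a, Eif3b, Eif3j1, Eif3l, Eif4a2, Eif4a3, Eif4e and Eif4g1 with lower values and Eif3f and Eif4b with higher values in knockout.

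**Figure D2:**
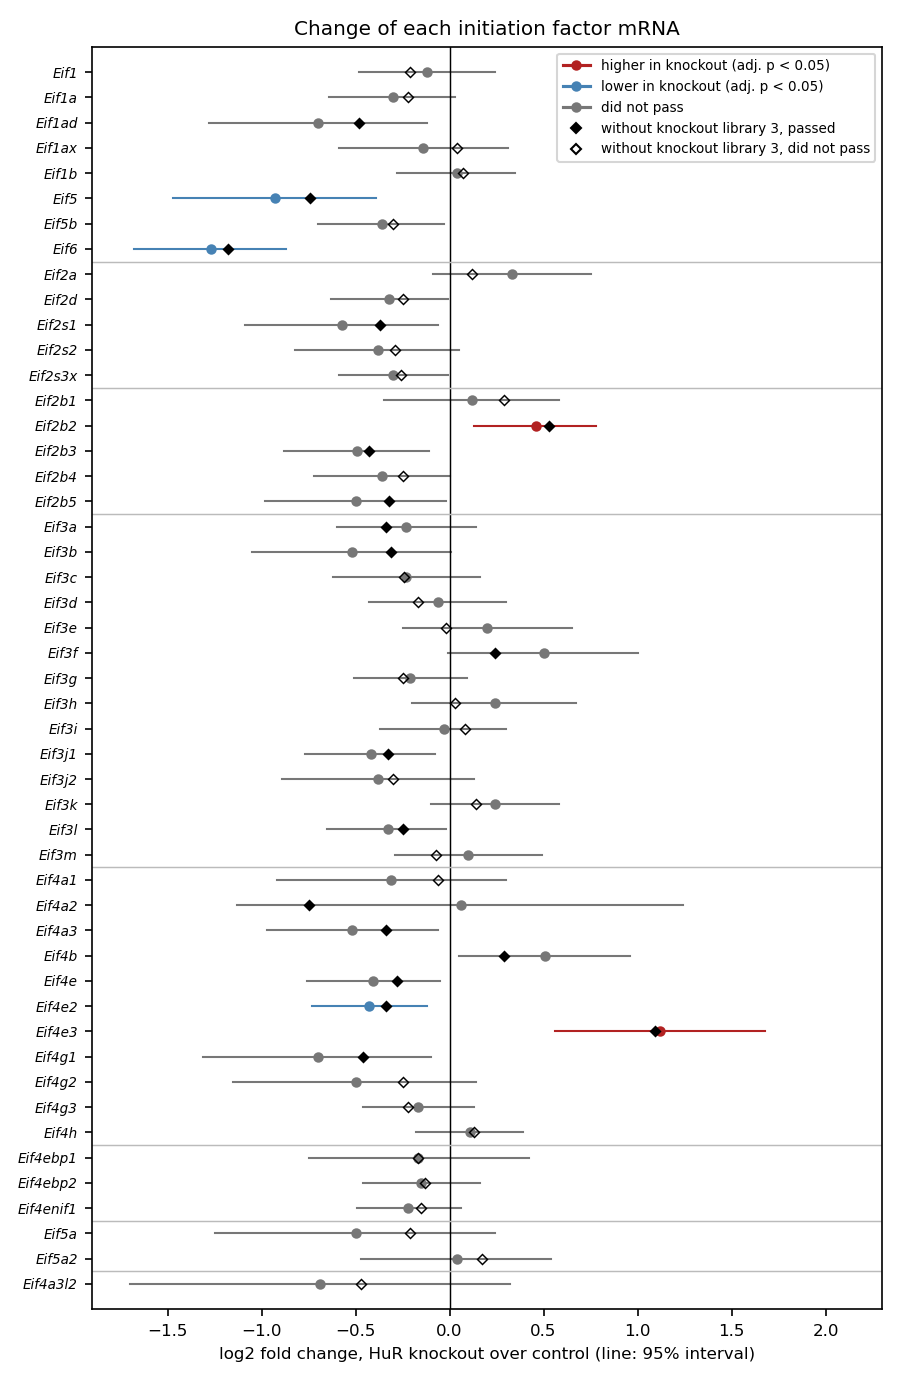
Log2 fold change of HuR knockout over control (horizontal axis) for each initiation factor gene tested (rows, grouped by role), from 3 libraries a group, with 95% intervals as lines. Blue and red circles passed the test, grey ones did not, and diamonds give the fold change without knockout library 3, filled where it passed, as for 15 lower and 4 higher genes.

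Among the factors that select the start codon and join the subunits, 2 of 8 fell and 6 did not pass (25% lower, against 15.4% of all genes), with a median log2 fold change of -0.33 (0.03 over all genes). DESeq2 called 4 lower (Eif1ad, Eif5, Eif5b and Eif6). Without knockout library 1, Eif1ad and Eif5b also fell. Eif6, whose product binds the large subunit and keeps it from joining the small one too early, had 183, 163 and 141 CPM in knockout libraries 1, 2 and 3, against 351, 464 and 361 CPM in control libraries 1, 2 and 3. The highest knockout library was well under the lowest control library. Eif6 averaged 162 ± 20.7 CPM in knockout and 391.8 ± 62.3 CPM in control (SD, n = 3 each), 2.41-fold lower (log2 fold change -1.27, SE 0.17, 95% interval -1.68 to -0.87, adjusted p = 0.00242 by edgeR). Of the 5 genes called, it alone kept its call under every alternative run, with adjusted p-values up to 0.0129.

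Eif5 encodes the protein that makes eIF2 hydrolyse its GTP once the start codon is found. It had 233, 252 and 154 CPM in knockout libraries 1, 2 and 3, against 335, 460 and 421 CPM in control libraries 1, 2 and 3, so the groups did not overlap. It fell 1.91-fold (log2 fold change -0.93, SE 0.226, adjusted p = 0.0209 by edgeR). Without knockout library 3 the log2 fold change was -0.74 (adjusted p = 0.00354), and the gene no longer passed without control library 2 (0.0767) or control library 3 (0.0716).

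The other 6 genes of this group did not pass. Eif1ad, a gene named for its eIF1A-like domain, had 96.4, 74.5 and 49.1 CPM in knockout libraries and 112, 128 and 118 CPM in control libraries (log2 fold change -0.70, adjusted p = 0.0639; -0.48 and 0.0157 without knockout library 3). Eif5b, the subunit-joining GTPase, had 214, 172 and 168 CPM in knockout libraries and 223, 249 and 241 CPM in control libraries (log2 fold change -0.36, adjusted p = 0.0879). In both, every knockout library was below every control library. Eif1, the gatekeeper of start codon choice, had 617, 487 and 655 CPM in knockout libraries and 615, 672 and 627 CPM in control libraries, and the groups overlapped (log2 fold change -0.12, 95% interval -0.48 to 0.24). Its copy Eif1b had a log2 fold change of 0.04, and Eif1a and Eif1ax had -0.30 and -0.14 (adjusted p of these 4 genes from 0.134 to 0.85).

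Of the 5 genes tested for eIF2 and the delivery of initiator tRNA, 0 passed by edgeR. Of these 5, 4 had a log2 fold change below 0 (median -0.32), as had 5902 of all 12293 genes tested. An unadjusted edgeR p under 0.05 was seen for 3, where 5702 of all 12293 genes tested had one. DESeq2 called 3 lower (Eif2d, Eif2s1 and Eif2s3x) and limma-voom 0, and without knockout library 1 edgeR called 2 lower (Eif2s1 and Eif2s2). Eif2s1 encodes the alpha subunit, the one that stress kinases phosphorylate. It had 193, 165 and 110 CPM in knockout libraries 1, 2 and 3, against 228, 245 and 221 CPM in control libraries 1, 2 and 3. All 3 knockout libraries were below all control libraries, with library 3 lowest by far (log2 fold change -0.57, SE 0.215, adjusted p = 0.0806; -0.37 and 0.0182 without knockout library 3). The beta subunit gene Eif2s2 had 322, 221 and 222 CPM in knockout libraries and 313, 360 and 325 CPM in control libraries, where knockout library 1 lay among the controls (adjusted p = 0.147). The gamma subunit gene Eif2s3x averaged 164 ± 10.1 CPM in knockout and 201 ± 16.5 CPM in control (log2 fold change -0.30, adjusted p = 0.101). Eif2d, which can deliver tRNA without eIF2, had a log2 fold change of -0.32 (adjusted p = 0.101). Eif2a, another tRNA carrier that is no subunit of eIF2, was the exception in direction, with 102, 103 and 150 CPM in knockout libraries and 95.8, 96.7 and 90.3 CPM in control libraries (log2 fold change 0.33, adjusted p = 0.191; 0.12 and 0.282 without knockout library 3).

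The subunits of eIF2B, the exchange factor that recharges eIF2, had fold changes in both directions, with a median log2 fold change of -0.36. Of the 5 genes, 1 rose (20%, against 20.3% of all genes called higher) and 4 did not pass. Eif2b2, the gene of the regulatory beta subunit, had 93.2, 80.7 and 74.4 CPM in knockout libraries 1, 2 and 3, against 64.6, 61.9 and 54.3 CPM in control libraries 1, 2 and 3. The groups did not overlap, and Eif2b2 rose 1.37-fold (log2 fold change 0.46, SE 0.136, adjusted p = 0.0388 by edgeR). Without knockout library 1, and by DESeq2, Eif2b3 was called lower. The call of Eif2b2 was lost without knockout library 1 or 2 (adjusted p = 0.0933 and 0.076), without control library 1, 2 or 3 (0.0865, 0.135 and 0.174) and without the low count filter (0.0628). The catalytic gamma and epsilon subunit genes Eif2b3 and Eif2b5 were lower by edgeR's estimate without passing, at -0.49 for Eif2b3 (adjusted p = 0.0539) and -0.50 for Eif2b5 (adjusted p = 0.0958). Eif2b5 had 130, 115 and 78.6 CPM in knockout libraries and 142, 165 and 151 CPM in control libraries, again with no overlap. Without knockout library 3 both passed, Eif2b3 at -0.43 (adjusted p = 0.0434) and Eif2b5 at -0.32 (adjusted p = 0.0371). Of the other regulatory subunits, Eif2b4 had a log2 fold change of -0.36 (adjusted p = 0.107) and Eif2b1 of 0.12 (adjusted p = 0.661).

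Subunits of eIF3, the scaffold that holds the small subunit, the tRNA and the mRNA together, did not share a direction. By edgeR 0 of the 14 genes passed and 2 had an unadjusted p under 0.05, where 5702 of all 12293 genes tested had one. DESeq2 called 2 lower (Eif3j1 and Eif3l) and limma-voom 0. Without knockout library 3, 4 were called lower and 1 higher (35.7% together, against 48.3% of all genes), and without knockout library 1, Eif3j1 was called lower. Their median log2 fold change was -0.13, and 9 of 14 were below 0, as were 5902 of all 12293 genes tested. Eif3b, the gene of a core scaffold subunit, had 779, 688 and 443 CPM in knockout libraries 1, 2 and 3, against 865, 982 and 886 CPM in control libraries 1, 2 and 3. No knockout library reached the control range (log2 fold change -0.52, adjusted p = 0.114; -0.31 and 0.0264 without knockout library 3). Eif3a, the gene of the largest subunit, had 834, 659 and 921 CPM in knockout libraries and 927, 931 and 972 CPM in control libraries, where library 3 was the knockout library closest to control (log2 fold change -0.23, adjusted p = 0.29; -0.34 and 0.0319 without it). Eif3j1, the gene of a loosely bound subunit, had a log2 fold change of -0.42 (adjusted p = 0.0609) and Eif3l of -0.33 (adjusted p = 0.0901). Eif3c had -0.23 (adjusted p = 0.314) and Eif3g had -0.21 (adjusted p = 0.239), and the groups overlapped in both.

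Other eIF3 genes were higher in knockout library 3 than in any other library. Eif3f had 332, 350 and 545 CPM in knockout libraries 1, 2 and 3, against 295, 295 and 279 CPM in control libraries 1, 2 and 3. All knockout libraries were above all control libraries, by less in libraries 1 and 2 than in library 3 (log2 fold change 0.50, SE 0.21, adjusted p = 0.111; 0.24 and 0.0465 without knockout library 3). Eif3h had 493, 482 and 709 CPM in knockout libraries and 500, 480 and 450 CPM in control libraries, so knockout libraries 1 and 2 lay among or next to the controls (log2 fold change 0.24, adjusted p = 0.348; 0.03 and 0.769 without knockout library 3). Eif3e had 239, 221 and 343 CPM in knockout libraries and 224, 248 and 227 CPM in control libraries, with the same layout (log2 fold change 0.20, adjusted p = 0.447; -0.02 and 0.889 without knockout library 3). Eif3d, Eif3k and Eif3m also had their highest value in knockout library 3, at 1.1 to 1.35 times the control mean. In human cells the mRNAs for eIF3e, eIF3f and eIF3h belong to the class with a terminal oligopyrimidine tract at the capped end, whose translation follows mTORC1; such tracts were not analysed here. In the same library Eif3b, Eif3i, Eif3j1, Eif3j2 and Eif3l had their lowest values, at 0.486 to 0.826 times the control mean.

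The cap-binding and helicase group held 1 gene that fell and 1 that rose among 11 tested, with 9 that did not pass and a median log2 fold change of -0.31. These are 9.09% in each direction, against 15.4% of all genes called lower and 20.3% higher. Without knockout library 3, 5 fell and 2 rose (63.6% together, against 48.3% of all genes), and without knockout library 1, 2 fell and 2 rose. DESeq2 called 4 lower (Eif4a3, Eif4e, Eif4e2 and Eif4g1) and Eif4e3 higher. Eif4e2 encodes a cap-binding relative of eIF4E that represses translation of the mRNAs it is brought to. It had 128, 123 and 104 CPM in knockout libraries 1, 2 and 3, against 153, 168 and 154 CPM in control libraries 1, 2 and 3. The groups did not overlap, and Eif4e2 fell 1.34-fold (log2 fold change -0.43, SE 0.128, adjusted p = 0.041 by edgeR). The call was lost without knockout library 2 (adjusted p = 0.076) and without control library 1, 2 or 3 (0.0992, 0.135 and 0.103).

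Eif4e3, a more distant cap-binding relative with few counts here, had the largest increase of the family. It had 6.16, 7.5 and 7.35 CPM in knockout libraries 1, 2 and 3, against 2.95, 3 and 3.71 CPM in control libraries 1, 2 and 3, from 113 to 153 counts in a knockout library and 61 to 63 in a control library. The 3 knockout libraries were close together and all above the controls. Eif4e3 rose 2.18-fold (log2 fold change 1.12, SE 0.236, 95% interval 0.56 to 1.68, adjusted p = 0.0122 by edgeR), and 1.09 on the log2 scale without knockout library 3 (adjusted p = 0.00824). It no longer passed without control library 1 (0.0554) or control library 2 (0.0677).

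Eif4e, the gene of the main cap-binding protein, had 158, 143 and 114 CPM in knockout libraries 1, 2 and 3, against 182, 189 and 179 CPM in control libraries 1, 2 and 3. Every knockout library was below every control library, and the control libraries lay within a narrow range. The log2 fold change was -0.41 (SE 0.149, 95% interval -0.76 to -0.05), and the test across all genes was not passed (adjusted p = 0.074 by edgeR). It was passed without knockout library 3 (log2 fold change -0.28, adjusted p = 0.0317), without knockout library 1 (-0.51, adjusted p = 0.0487) and with DESeq2 (-0.43, adjusted p = 0.0262).

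Eif4g1, the gene of the main scaffold, had 992, 957 and 527 CPM in knockout libraries 1, 2 and 3, against 1239, 1456 and 1338 CPM in control libraries 1, 2 and 3. Knockout libraries 1 and 2 were alike, library 3 was at 0.392 times the control mean, and none reached the control range. The log2 fold change was -0.70 (SE 0.253, adjusted p = 0.0718 by edgeR), and -0.46 without knockout library 3 (adjusted p = 0.00359). Eif4g2 encodes a relative of eIF4G that does not bind eIF4E. It had 1220.1, 1105 and 607 CPM in knockout libraries and 1232, 1536 and 1391 CPM in control libraries, with knockout library 1 just under the lowest control (log2 fold change -0.50, adjusted p = 0.189; -0.25 and 0.0796 without knockout library 3). Eif4g3 had a log2 fold change of -0.17 (95% interval -0.46 to 0.13, adjusted p = 0.328).

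The helicase genes Eif4a1 and Eif4a2 parted in knockout library 3. Eif4a1 had 1890, 1921 and 1022 CPM in knockout libraries 1, 2 and 3, against 1908, 2175 and 1895 CPM in control libraries 1, 2 and 3, so libraries 1 and 2 were at control level and library 3 was far below. The log2 fold change of Eif4a1 was -0.31 (adjusted p = 0.382), and -0.06 without knockout library 3 (adjusted p = 0.566). Eif4a2 had 125, 86 and 346 CPM in knockout libraries and 198, 153 and 184 CPM in control libraries, with libraries 1 and 2 below and library 3 above every control. Its log2 fold change was 0.06 (95% interval -1.13 to 1.24, adjusted p = 0.937), and -0.75 without knockout library 3, when it passed (adjusted p = 0.0157). Eif4a3, a helicase of the exon junction complex and no part of eIF4F, had a log2 fold change of -0.52 (adjusted p = 0.077; -0.34 and 0.0185 without knockout library 3).

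Of the helpers of eIF4A, Eif4b was higher in every knockout library. It had 900, 1015 and 1428 CPM in knockout libraries 1, 2 and 3, against 785, 770 and 797 CPM in control libraries 1, 2 and 3. The controls were close together, the knockout libraries spread widely, and the groups did not overlap (log2 fold change 0.51, SE 0.192, adjusted p = 0.0822 by edgeR). Without knockout library 3 the log2 fold change was 0.29 (adjusted p = 0.0202), and without knockout library 1 it was 0.64 (adjusted p = 0.0418). Eif4h, which aids the same helicase, averaged 794 ± 17.3 CPM in knockout and 738 ± 51.7 CPM in control (adjusted p = 0.516).

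**Figure D3:**
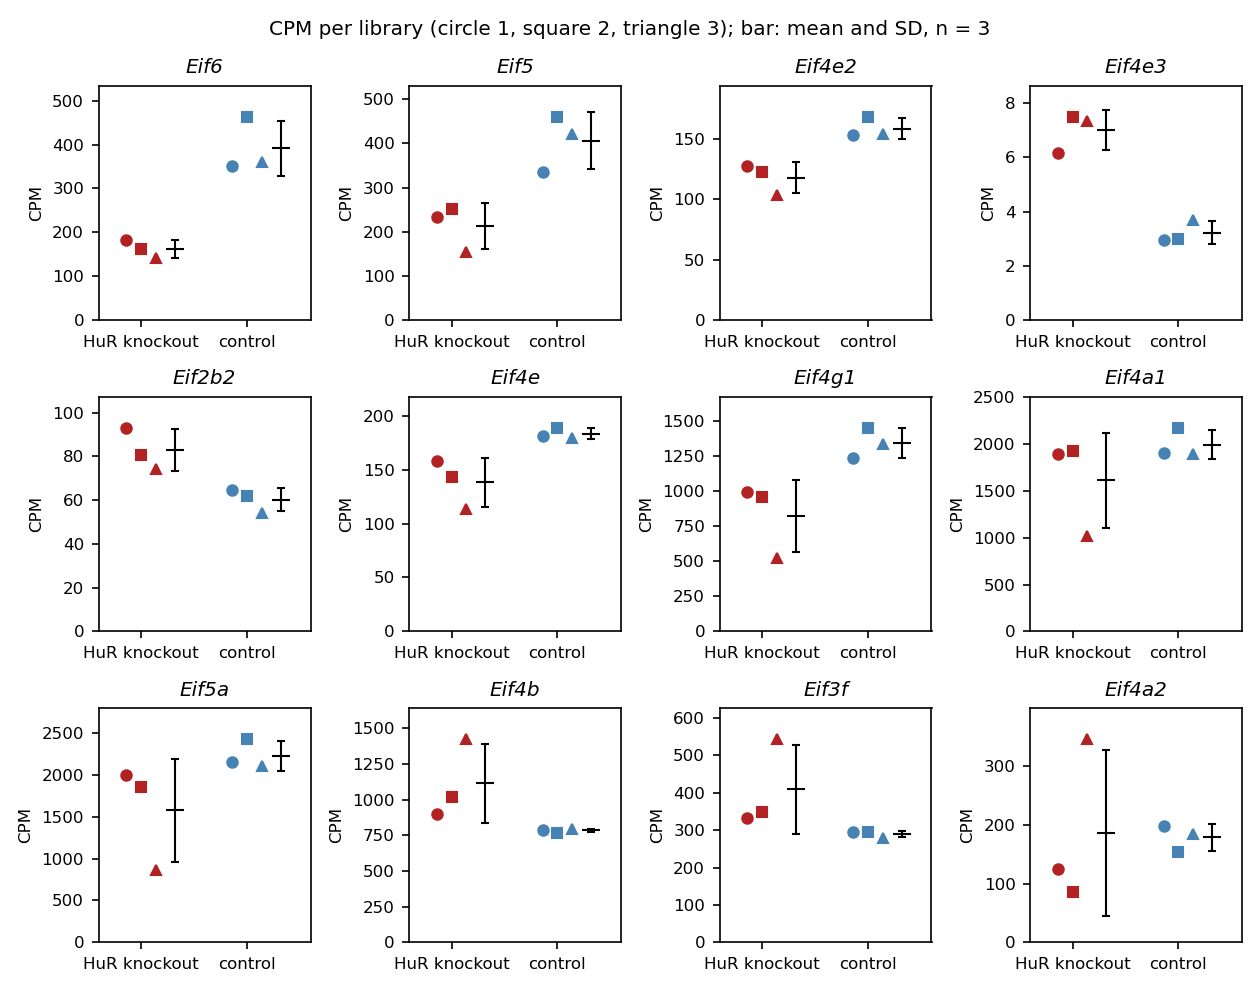
CPM in each library (vertical axis, from 0) for 12 initiation factor genes, with HuR knockout on the left in red and control on the right in blue; circles, squares and triangles are libraries 1, 2 and 3, and bars give the mean and SD of 3 libraries. Eif6, Eif5, Eif4e2, Eif4e and Eif4g1 have no overlap with knockout lower, Eif4e3, Eif2b2, Eif4b and Eif3f have none with knockout higher, and knockout library 3 stands off in Eif4a1, Eif5a and Eif4a2.

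Genes of the eIF4E-binding proteins, which hold eIF4E away from eIF4G until mTORC1 phosphorylates them, did not pass, and neither did the eIF4E transporter gene Eif4enif1 (0 of 3 tested by edgeR, DESeq2 or limma-voom, with 0 at an unadjusted p under 0.05). Eif4ebp1 had 379, 192 and 286 CPM in knockout libraries 1, 2 and 3, against 314, 330 and 317 CPM in control libraries 1, 2 and 3. The knockout libraries lay on both sides of a tight control range (log2 fold change -0.17, 95% interval -0.75 to 0.42, adjusted p = 0.625). Eif4ebp2 had 122, 139 and 126 CPM in knockout libraries and 126, 156 and 148 CPM in control libraries, with overlap (log2 fold change -0.15, 95% interval -0.46 to 0.16, adjusted p = 0.399). Eif4enif1 had a log2 fold change of -0.22 (adjusted p = 0.185), with no overlap between the groups.

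eIF5A, once classed with the initiation factors, acts in elongation and termination and carries the modified residue hypusine. Eif5a had 2000, 1854 and 863 CPM in knockout libraries 1, 2 and 3, against 2149, 2429.6 and 2098 CPM in control libraries 1, 2 and 3. All knockout libraries were below all controls, libraries 1 and 2 slightly and library 3 strongly (log2 fold change -0.50, SE 0.311, adjusted p = 0.25; -0.21 and 0.0841 without knockout library 3). Eif5a2 averaged 15.3 ± 3.1 CPM in knockout and 14.9 ± 2.18 CPM in control (adjusted p = 0.904). Neither gene passed by edgeR, DESeq2 or limma-voom, and 0 of the 2 had an unadjusted p under 0.05.

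The 4 genes with too few counts to test were Eif2s3y, Eif4e1b, Eif4ebp3 and Eif4a3l1. Eif2s3y and Eif4e1b had no count in any library, which allows up to 0.184 CPM in the shallowest knockout library and 0.182 CPM in the shallowest control library. Eif4ebp3 had 5, 1 and 2 counts in knockout libraries and 3, 1 and 2 in control libraries, and Eif4a3l1 had 3, 4 and 3 in knockout libraries and 13, 6 and 3 in control libraries. Eif4a3l2 was tested from 9 to 21 counts in a knockout library and 17 to 39 in a control library and did not pass (adjusted p = 0.243). Reads of Eif4a3 and its copies, and of Eif3j1 and Eif3j2, may have been split by the counting, so these values are uncertain.

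Related factors were also compared within each library, as the log2 ratio of their CPM, in 12 pairs of which both genes averaged at least 1 CPM. Only the difference between groups can be read, since the ratio itself depends on transcript length. The Eif4e3/Eif4e ratio was -4.67, -4.25 and -3.95 in knockout libraries 1, 2 and 3, against -5.93, -5.97 and -5.58 in control libraries 1, 2 and 3, a difference of 1.54 (two-sided exact permutation test, p = 0.1, adjusted p = 0.3 over the 12 pairs). This is the smallest p that 3 against 3 libraries can give. Every knockout library was above every control library in 3 other pairs: the difference was 0.19 for Eif4g2/Eif4g1, 0.59 for Eif4g3/Eif4g1 and 0.62 for Eif5a2/Eif5a (exact permutation p = 0.1, adjusted p = 0.3 each).

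Other pairs did not separate the groups. The Eif4a2/Eif4a1 ratio was -3.91, -4.48 and -1.56 in knockout libraries 1, 2 and 3 and -3.27, -3.83 and -3.36 in control libraries 1, 2 and 3, so the knockout libraries lay on both sides of the controls (exact permutation p = 1). The Eif4e2/Eif4e ratio averaged -0.22 ± 0.08 in knockout and -0.21 ± 0.04 in control (SD, n = 3 each, exact permutation p = 0.9). The Eif4ebp1/Eif4e ratio was 1.27, 0.42 and 1.33 in knockout libraries and 0.79, 0.81 and 0.82 in control libraries (exact permutation p = 0.4, adjusted p = 0.6), and the Eif4ebp2/Eif4e ratio differed by 0.27 (exact permutation p = 0.3, adjusted p = 0.6). The difference was 0.17 for Eif1b/Eif1, -0.14 for Eif1a/Eif1ax, 0.06 for Eif3j2/Eif3j1 and 0.07 for Eif4ebp2/Eif4ebp1, with overlap in each (exact permutation p from 0.4 to 0.9).

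**Figure D4:**
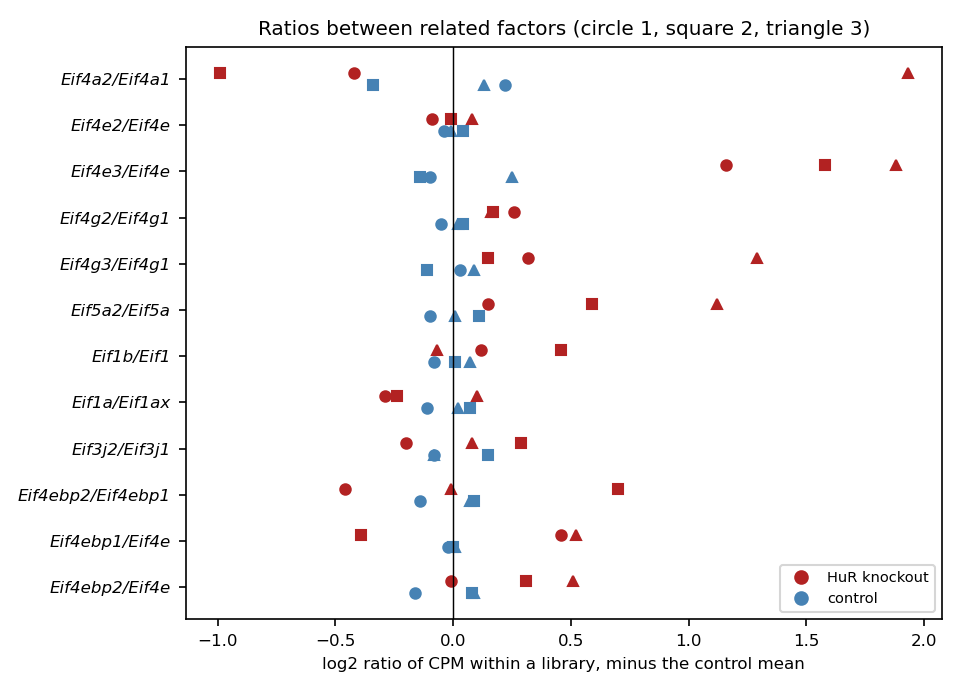
Log2 ratio of the CPM of 2 related genes in each library, minus the mean over control libraries (horizontal axis), for 12 pairs (rows), with HuR knockout in red above control in blue; circles, squares and triangles are libraries 1, 2 and 3. The groups do not overlap for Eif4e3/Eif4e, Eif4g2/Eif4g1, Eif4g3/Eif4g1 and Eif5a2/Eif5a, and the Eif4a2/Eif4a1 ratio has knockout libraries on both sides.

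Genes that act on or beside these factors were described by lists, whose members were also compared by edgeR, beside 20.3% of all genes called higher and 15.4% lower. Of 12 regulators of eIF4F and poly(A)-binding proteins, 2 rose and 4 fell (16.7% and 33.3%), with a median log2 fold change of 0.04. Those that fell were Angel1, Larp1, Pabpc1 and Pabpc4, named after their values were seen; 2 of them, Angel1 and Pabpc4, fell without knockout library 2 or any single control library. Pdcd4, an inhibitor that binds eIF4A, had 29.1, 68.6 and 136.6 CPM in knockout libraries 1, 2 and 3, against 5.29, 2.36 and 2.55 CPM in control libraries 1, 2 and 3. It rose 22.8-fold (log2 fold change 4.51, SE 0.666, adjusted p = 0.00352 by edgeR), with no overlap; without knockout library 3 it was 3.83 on the log2 scale (adjusted p = 0.0058). Paip2, an inhibitor of poly(A)-binding protein, had 89.5, 103 and 106 CPM in knockout libraries and 62.3, 56.2 and 57 CPM in control libraries, a rise of 1.7-fold (adjusted p = 0.00407).

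Of 13 genes of the mTORC1 pathway, which phosphorylates the eIF4E-binding proteins, 4 rose and 0 fell (30.8% higher, against 20.3% of all genes), with a median log2 fold change of 0.28; without control library 2 or 3, 2 rose. Beside Ddit4 and Deptor these were Rps6kb2 and Tsc2, named after their values were seen. Ddit4, an inhibitor of mTORC1 that responds to stress, had 245, 390 and 415 CPM in knockout libraries 1, 2 and 3, against 75.2, 45.7 and 71.8 CPM in control libraries 1, 2 and 3. It rose 5.45-fold (log2 fold change 2.45, SE 0.286, adjusted p = 0.00163 by edgeR). Deptor, another inhibitor of mTOR, had 133, 108 and 117 CPM in knockout libraries and 65.8, 69.8 and 77.9 CPM in control libraries, a rise of 1.68-fold (adjusted p = 0.00679). In both genes all knockout libraries were above all controls.

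Of 8 genes for the eIF2 kinases and the phosphatase that opposes them, Eif2ak1, the haem-regulated kinase, rose 1.31-fold (adjusted p = 0.0379) and 0 fell (12.5% called, against 35.7% of all genes); the median log2 fold change was 0.31. The call of Eif2ak1 was lost without knockout library 2 (adjusted p = 0.0907), without control library 1, 2 or 3 (0.14, 0.126 and 0.148) and without the low count filter (0.0734). Without knockout library 1 Eif2ak3 and without knockout library 3 Ppp1ca passed beside it, and without knockout library 2 Ppp1r15a passed in its place, all higher. Of 10 target genes of the eIF2 and ATF4 stress response, 0 passed by edgeR, DESeq2 or limma-voom. By edgeR 0 had an unadjusted p under 0.05, against 5702 of all 12293 genes tested, and their median log2 fold change was 0.17. Without knockout library 2, 3 of these targets (Ddit3, Ppp1r15a and Trib3) were called higher.

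Of 7 other scanning and initiation genes, 2 fell (28.6% lower, against 15.4% of all genes), with a median log2 fold change of -0.19; without knockout library 3, 3 fell and 1 rose. Denr, which re-initiates and recycles small subunits with its partner Mcts1, had 81.4, 72.9 and 46.1 CPM in knockout libraries and 147, 139 and 131 CPM in control libraries, a fall of 2.08-fold (adjusted p = 0.0116). Mcts1, named after its values were seen, was higher in every knockout library than in every control library. By edgeR it did not pass (log2 fold change 0.3, adjusted p = 0.189), but passed without knockout library 3 (0.4, adjusted p = 0.0307). The helicase gene Dhx29 fell 1.51-fold (adjusted p = 0.0347), and its call was lost without knockout library 2 (0.0851) or control library 1, 2 or 3 (0.0682, 0.12 and 0.0938).

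Of 6 termination and recycling genes, the release factor genes Etf1 and Gspt1 fell 1.51-fold and 1.62-fold (adjusted p = 0.0322 and 0.042). Both calls were lost without knockout library 2 (0.0729 and 0.0654), control library 1 (0.0631 and 0.0906), control library 2 (0.113 and 0.127) or control library 3 (0.0824 and 0.108). These are 33.3% of the 6, against 15.4% of all genes called lower. The median log2 fold change of the 6 was -0.48, DESeq2 called 5 lower, and without knockout library 1 or 3, 3 fell. Of 8 listed genes tested whose symbols begin with Eef, 0 passed by edgeR. An unadjusted edgeR p under 0.05 was seen for 2, against 5702 of all 12293 genes tested. DESeq2 called 2 lower (Eef1e1 and Eef1g) and limma-voom 1 (Eef1e1). Without knockout library 1, Eef1e1, Eef1g and Eefsec fell, and without knockout library 3 Eef1e1 and Eef1g fell and Eef1a1 rose. In knockout library 3, 3 of these 8 genes had their highest and 4 their lowest value. Of 6 genes of the hypusine and polyamine pathway that serves eIF5A, 1 fell (16.7%), with a median log2 fold change of -0.41; without knockout library 1 or 3, Sms also fell. The gene called with all libraries was Odc1, the ornithine decarboxylase gene, with 277, 220.0 and 90.8 CPM in knockout libraries 1, 2 and 3, against 685, 877 and 742 CPM in control libraries 1, 2 and 3, a fall of 3.92-fold (log2 fold change -1.97, SE 0.397, adjusted p = 0.0107; -1.63 and 0.000131 without knockout library 3).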

How the data were processed

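Bulk RNA-seq counts, whole numbers per gene symbol, were deposited by the authors for 6 libraries; STAR 2.7.1a, featureCounts and hg38 are listed without role per the submitters' processing notes. The sources used here name no annotation and no strand setting. Libraries were grouped by title and matched by library name. In 1704 rows with 0 in control library 1, all deposited counts were multiples of 11; these rows were divided by 11, and none held an initiation factor gene. The main test was the robust quasi-likelihood test of edgeR 4.0.16 (R 4.3.3) after filterByExpr and TMM scaling, with Benjamini-Hochberg adjustment over all genes and a threshold of 0.05; CPM use TMM-scaled totals. Pair ratios used a prior count of 0.5. DESeq2 1.42.0, limma-voom (limma 3.58.1), other scalings, filters, the replicate block and leaving out each library were alternatives. The edgeR fit was tested on simulated counts, and the permutation test on made values with known answers. No pair of libraries of one group agreed within sampling noise. Intervals and floors (3 counts) cover counting or library spread only. The gene set and lists were chosen with earlier results of these data known. Per-library values were given for called members, the 5 with the highest mean CPM, 6 chosen genes of cap binding, eIF2 and eIF4E control, and others picked after their values were seen. From each list at most 2 called genes with the smallest p are named with values, apart from Mcts1, which was added afterwards. All further list genes were named after their values were seen, also where the sentence that names them does not say so. No mouse reference was used here, so no lengths, coordinates or sequences are given.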

Additional observations from a re-analysis of the deposited data

How the results depend on the processing

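With other processing, 2 initiation factors were called higher and 3 lower with values as deposited, without the rows at multiples of 11, with upper quartile scaling and with limma-voom. These settings called 2288 to 2561 higher and 1849 to 2000 lower over all genes. The number called lower was 5 with DESeq2 size factors, 4 with library totals and 14 with DESeq2's own test, against 1996, 1905 and 2451 over all genes. Without the low count filter 1 was called higher and 3 lower, against 2392 and 1975 of 16325 genes. With the replicate block 1 was called higher and 2 lower, against 1976 and 1615 of 12293 genes (Eif2b2 and Eif4e2 no longer passed, at adjusted p = 0.0504 and 0.0784). The block also ended the calls of Gspt1, Etf1, Dhx29 and Eif2ak1 (0.0551, 0.0604, 0.0636 and 0.0772). The calls of Larp1, Pabpc1 and Tsc2 were lost both with the block and without the low count filter. Leaving out 1 library at a time gave 0 to 4 called higher and 1 to 15 called lower, the most without knockout library 3, and 1166 to 3178 higher and 1130 to 2843 lower over all genes. The median log2 fold change of the initiation factors lay between -0.316 and -0.242 when 1 library was left out. Of the 44 genes not called, 18 passed under at least 1 alternative. Deviations from the group mean correlated at -0.049, 0.256 and 0.022 between libraries with the same number, so the numbers were not taken to pair them. Some log2 fold changes that had not passed turned sign: Eif4a2 to -0.188 with limma-voom and -0.206 with the block. With 1 library left out, the ranges were -0.754 to 0.4 for Eif4a2, -0.25 to 0.037 for Eif1ax, -0.033 to 0.07 for Eif1b, -0.17 to 0.053 for Eif3d, -0.018 to 0.32 for Eif3e, -0.11 to 0.076 for Eif3i, -0.071 to 0.2 for Eif3m, -0.42 to 0.056 for Eif4ebp1, -0.127 to 0.17 for Eif5a2 and -0.09 to 0.006 for Elavl1. The differences in log2 ratio ranged from -0.711 to 0.75 for Eif4a2/Eif4a1, -0.05 to 0.031 for Eif4e2/Eif4e, -0.055 to 0.19 for Eif3j2/Eif3j1 and -0.24 to 0.34 for Eif4ebp2/Eif4ebp1. The cause was not tested. Eif4e3 rests on 61 to 153 counts a library; Eif2s3y and Eif4e1b had no count, and Eif4ebp3 and Eif4a3l1 too few to test.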
